A study of Mus musculus with 12 samples.

Results

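The age difference in lung CD4+ T cells without infection was read from the 6 of 12 libraries of the series whose mice aspirated phosphate-buffered saline (PBS) alone, 3 from neonates and 3 from juveniles. The members were chosen by their labels and by no measured value. All mice were C57BL/6NJ, of both sexes, and the labels name no transgene or deleted gene. Neonates aspirated PBS on day 5 and juveniles on day 15, and lungs were taken 48 h later, on days 7 and 17. A neonatal library pools cells of 3 mice and a juvenile library cells of 2 mice, so that n = 3 counts pools, and age cannot be told apart from the size of the pool. CD4+ cells were enriched on magnetic beads and then sorted, and no further gate is named in the labels. PBS mice had fluid placed in the airway, so they are controls for bacteria and not untouched animals. The other 6 libraries, from mice of the same ages given 2800000 colony-forming units of E. coli, share no sample with the PBS libraries and are set beside them where they bear on a result.

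CD4+ T cells are the helper branch of the T lymphocytes. They leave the thymus as naive cells, circulate through lymph nodes, and after meeting antigen divide and become effector or memory cells, some of which settle in tissues such as the lung. A newborn mouse has few peripheral T cells, and those it has come from a fetal wave of precursors marked by the RNA-binding protein Lin28b, which blocks maturation of let-7 microRNAs. Dividing cells copy their DNA methylation through Uhrf1, which recognises half-methylated CpG sites, and Dnmt1, which methylates them; the series' title names DNA methylation as its subject.

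Counts assigned to genes ran from 6035445 to 7278793 in the PBS libraries, and 11062 of 19434 genes passed the filter on low counts. Values below are CPM, counts scaled to the depth of each library, given for the 3 pools in the order of their replicate numbers. The T cell identity list was high in every pool: Cd3e, the receptor's signalling chain, stood at 1752, 1655 and 1421 CPM in neonates and 1908, 1683 and 2033 CPM in juveniles, and Cd4 at 1222, 1131 and 1047 CPM and 1343, 1243 and 1307 CPM. No member of that list of 23 passed the test between ages (median log2 fold change -0.103). Neutrophil markers S100a8, S100a9 and Ly6g were at or near 0 everywhere. The juvenile replicate 2 pool stood apart from its group: it correlated with its 2 partners at 0.9746 and 0.969, against at least 0.981 for every other pair of one group, and separated from the rest on the second principal component. Summed transcripts of immature T cells were highest in that pool, at 1681 CPM, and in neonatal replicate 1, at 2061 CPM, against 1217 to 1453 CPM in the other 4. Rag1, the recombinase of developing lymphocytes, stood at 344, 75.97 and 47.5 CPM in neonates and 13.7, 169.9 and 29.5 CPM in juveniles, so the groups overlapped. Transcripts of the Y chromosome also differed between pools of one age, with Ddx3y at 26.8, 85.8 and 42.3 CPM and 109.9, 51.6 and 93.9 CPM. The 4 Y-linked genes summed to 108.1, 362.4 and 181.5 CPM in neonates and 388.2, 159.5 and 372.7 CPM in juveniles. None of them passed the test between ages, at a median log2 fold change of -0.482.

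**Figure D1:**
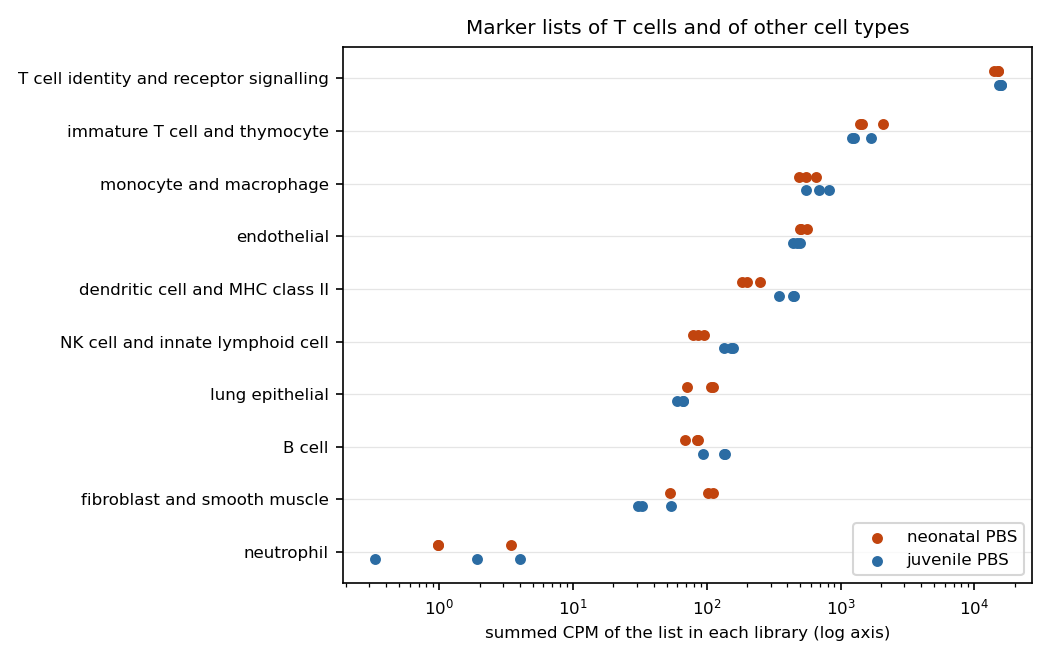
Summed CPM of each marker list (log x axis) in the 3 neonatal (red) and 3 juvenile (blue) PBS libraries. The T cell identity list lies between 14100 and 15730 in all 6, while dendritic cell and MHC class II transcripts are lower in the 3 neonatal libraries (182.2 to 249.4) than in the 3 juvenile ones (345.4 to 449.4).

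Neonatal and juvenile cells differed at 451 of 11062 genes tested (4.08%), of which 257 were higher in neonates (2.32%) and 194 lower (1.75%), at an adjusted p under 0.05 in edgeR's quasi-likelihood test. A gene so called is said to have risen or fallen below. At least 2-fold changes numbered 121 among the higher and 71 among the lower genes. The neonatal and juvenile pools did not overlap at 448 of the 451 called genes and at 2215 of all genes tested. The number called depended on single pools: it was 177 without neonatal replicate 1, 243 without juvenile replicate 1 and 299 without neonatal replicate 2. It was 280 when only the 6 PBS libraries set the spread, 77 with lung structural transcripts as a covariate and 81 with antigen-presenting cell transcripts as a covariate, both covariates chosen after seeing the data.

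**Figure D2:**
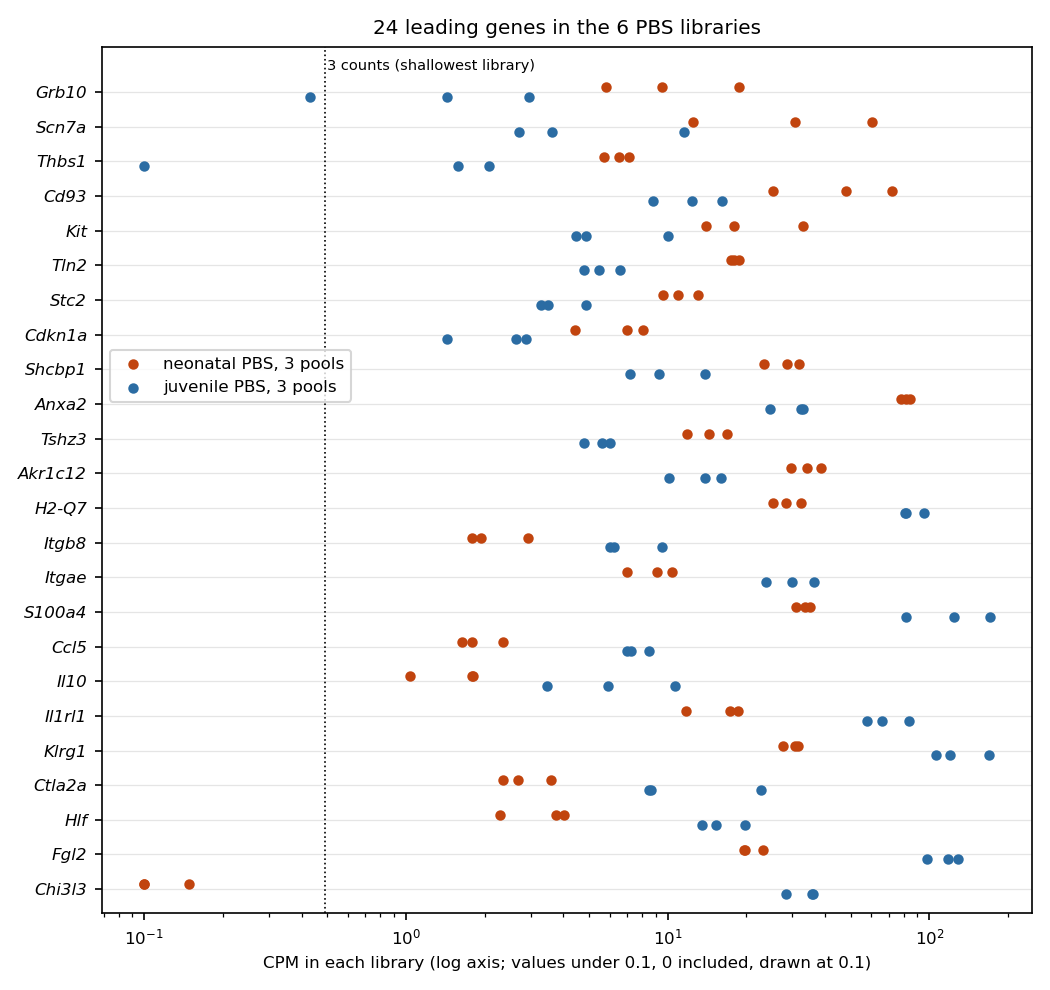
CPM (log x axis) of the 12 genes with the largest rise and the 12 with the largest fall in neonates among well-counted called genes, 1 point per pool, neonatal in red and juvenile in blue. The points of the ages are apart in each of the 24 genes, and the dotted line marks 3 counts.

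Genes of mitosis made up the list with the most called members, all in one direction. Of the 35 genes on the mitosis and G2/M list, 26 rose in neonates, none fell, and the median log2 fold change was 0.928, against -0.0115 over all genes tested. Mki67 (chr7:135689784-135716361), the proliferation marker of the nucleus, stood at 2039, 1528 and 1795 CPM in neonates and 645, 1160.5 and 648 CPM in juveniles (log2 fold change 1.13 ± 0.19 (SE), adjusted p = 0.00420). All 3 neonatal pools were above all 3 juvenile pools, and juvenile replicate 2 was the highest of its group. Ect2, which drives the furrow of the dividing cell, stood at 40.3, 34.9 and 38.9 CPM against 15.6, 22.2 and 18.01 CPM (1.03 ± 0.13, adjusted p = 0.000552). Tpx2, which builds the spindle, stood at 120.2, 114 and 113 CPM against 43.1, 65.4 and 46.5 CPM (1.17 ± 0.17, adjusted p = 0.00120). The groups did not overlap for either gene. Foxm1, the transcription factor of late cell cycle genes, stood at 67.5, 49.6 and 55.9 CPM against 30.7, 34.4 and 30.4 CPM (0.86 ± 0.13, adjusted p = 0.00175). Kif11, the motor that pushes spindle poles apart, stood at 298, 244 and 233 CPM against 114, 158 and 101 CPM (1.06 ± 0.17, adjusted p = 0.00252). Again no juvenile pool reached the lowest neonatal pool.

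On the S phase list 12 of 40 genes rose, none fell, and the median was 0.574. Clspn, which guards the replication fork, stood at 71.5, 64.03 and 61.6 CPM in neonates and 26.1, 36.8 and 27.7 CPM in juveniles (log2 fold change 1.12 ± 0.17 (SE), adjusted p = 0.00225). Rrm2, the subunit of ribonucleotide reductase that cells make in S phase, stood at 189, 174 and 179 CPM and 69.2, 122 and 80.98 CPM (0.9995 ± 0.18, adjusted p = 0.00668). Juvenile replicate 2 was once more the highest of its group. Pole and Tyms, for a replicative polymerase and thymidylate synthase, changed by 0.90 ± 0.15 and 0.85 ± 0.16. The S phase count was 5 to 7 without any 1 of the neonatal pools or without juvenile replicate 1, and 25 without juvenile replicate 2. Families singled out after their values were seen share members with the mitosis list, such as Kif11 and Cenpf, so their counts are no separate result. Against 2.32% of all genes tested, 10 of 26 kinesins and 6 of 18 centromere proteins rose. So did 4 of 6 condensin subunits and 5 of 6 linker histones, and none of these fell. E2f7 and E2f8, repressors of cell cycle genes also named after their values were seen, rose with them, by 1.32 ± 0.17 and 1.16 ± 0.19. Cdkn1a, the inhibitor of cyclin-dependent kinases known as p21, was among the 12 largest rises. It stood at 6.99, 8.06 and 4.41 CPM against 1.44, 2.64 and 2.87 CPM (log2 fold change 1.505 ± 0.27 (SE), adjusted p = 0.00624). Its call was lost when only the 6 PBS libraries set the spread.

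**Figure D3:**
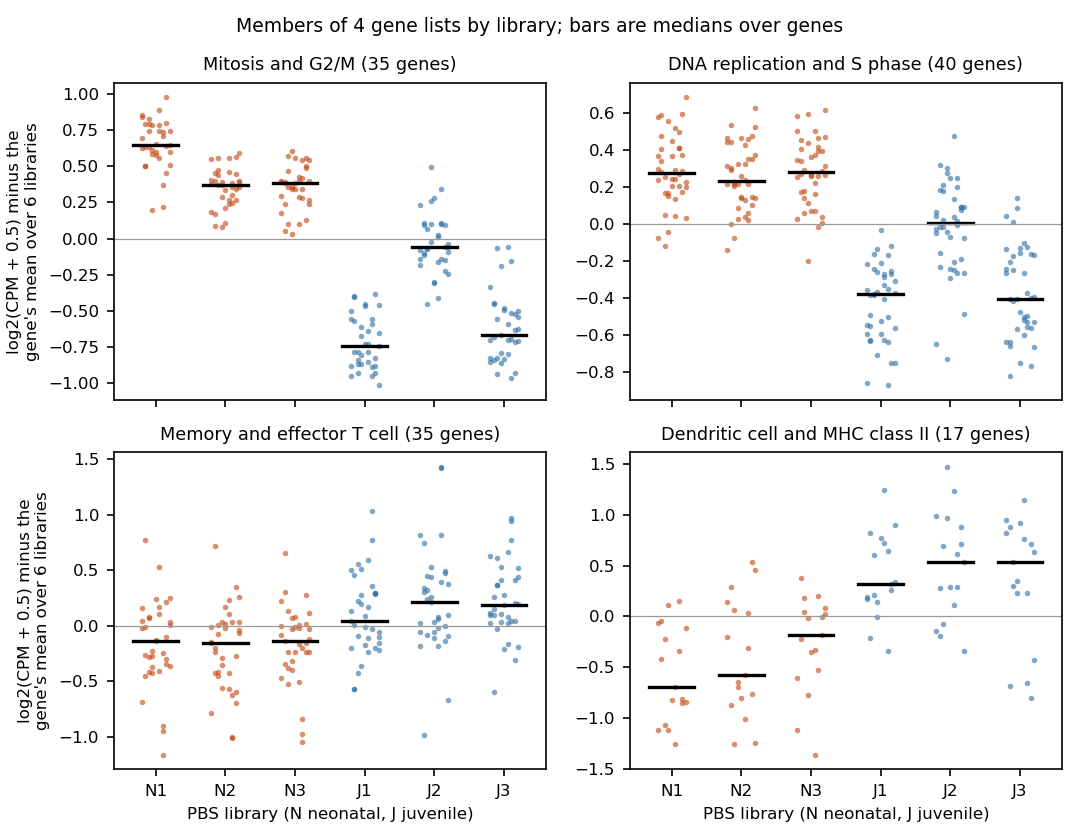
Each point is a gene of the list named above the panel in 1 PBS library, as log2(CPM + 0.5) minus that gene's mean over the 6 libraries (y axis), with neonatal pools N1 to N3 in red, juvenile pools J1 to J3 in blue and bars at the median. The mitosis medians are 0.65, 0.37 and 0.38 in the neonatal pools and -0.75, -0.06 and -0.67 in the juvenile pools, so juvenile pool 2 lies between its partners and the neonates.

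The immature T cell transcripts moved with part of this pattern. The mitosis list summed to 6150, 4859 and 5156 CPM in neonates and 2155, 3653 and 2139 CPM in juveniles, and the highest pool of each age was the one with the most Rag1. With both of those pools left out, 30 of the 35 mitosis genes rose, and with Rag1, Rag2 and Dntt as a covariate 26 did. Leaving out single pools gave 11 rises (without neonatal replicate 1), 15 (without juvenile replicate 1) and 33 (without juvenile replicate 2). With antigen-presenting cell transcripts as a covariate 7 rose, and with lung structural transcripts 1 did, at medians of 0.977 and 0.798.

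The promoters of mitosis genes shared sequence that the choice of the list did not use. Many genes of late cell cycle carry a TTTGAA element, the core of the cell cycle homology region, near CCAAT boxes bound by NF-Y. The RefSeq promoter table (GRCm38.p6) holds a promoter, 250 bases before to 50 after the start, for 30 of the 35 list members and 8872 of the 11062 genes tested. TTTGAA, searched on both strands, lay in 22 of the 30 (73.3%) against 12.4% of all genes tested with a promoter. CCAAT, on both strands, lay in 23 of the 30 (76.7%) against 39.2%. In S phase promoters the shares were 12.5% and 59.4%. Among the higher genes outside both cell cycle lists, 29.8% of 178 promoters held TTTGAA and 46.6% held CCAAT. The lists hold only 35 and 40 genes, so genes outside them may include others of the cell cycle. These are matches of letters and not sites shown to be bound. The promoters of the 4 mitosis genes with the smallest p among those in the table are shown so that the spacing can be seen, read 5′ to 3′ on the gene's strand. Capitals mark every TTTGAA and CCAAT, and TTCAAA and ATTGG where the match is on the opposite strand:

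Ect2 (chr3:27153829-27154128, minus strand): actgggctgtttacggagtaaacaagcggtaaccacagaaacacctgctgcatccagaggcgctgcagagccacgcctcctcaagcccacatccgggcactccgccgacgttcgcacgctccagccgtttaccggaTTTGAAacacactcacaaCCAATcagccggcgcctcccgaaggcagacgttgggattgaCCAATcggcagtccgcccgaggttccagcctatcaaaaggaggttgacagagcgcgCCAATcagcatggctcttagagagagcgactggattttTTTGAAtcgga

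Kif11 (chr19:37376132-37376431, plus strand): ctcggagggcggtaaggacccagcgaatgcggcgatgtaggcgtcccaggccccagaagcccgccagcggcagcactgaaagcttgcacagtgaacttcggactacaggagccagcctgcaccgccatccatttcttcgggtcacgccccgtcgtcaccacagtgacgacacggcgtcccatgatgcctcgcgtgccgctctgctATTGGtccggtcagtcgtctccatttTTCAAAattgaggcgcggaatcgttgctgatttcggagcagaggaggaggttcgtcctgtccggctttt

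Plk1 (chr7:122159185-122159484, plus strand): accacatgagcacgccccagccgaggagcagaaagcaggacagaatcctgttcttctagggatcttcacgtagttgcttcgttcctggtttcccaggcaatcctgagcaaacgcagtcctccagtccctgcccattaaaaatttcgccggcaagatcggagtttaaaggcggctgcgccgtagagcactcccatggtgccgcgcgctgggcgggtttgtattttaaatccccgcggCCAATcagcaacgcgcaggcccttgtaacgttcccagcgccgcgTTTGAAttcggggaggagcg

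Cenpf (chr1:189688037-189688336, minus strand): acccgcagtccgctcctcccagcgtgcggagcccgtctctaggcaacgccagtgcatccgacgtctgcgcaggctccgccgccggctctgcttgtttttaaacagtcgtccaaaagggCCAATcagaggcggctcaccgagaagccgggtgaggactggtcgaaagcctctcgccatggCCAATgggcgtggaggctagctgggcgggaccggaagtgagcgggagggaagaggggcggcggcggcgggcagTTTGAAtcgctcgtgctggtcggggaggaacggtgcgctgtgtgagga

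Ect2 holds 3 CCAAT matches and 2 TTTGAA matches, and Cenpf 2 and 1. Kif11 and Plk1 hold 1 of each, those of Kif11 on the opposite strand. Plk1, the kinase that starts mitosis, stood at 32.1, 25.4 and 20.9 CPM in neonates and 10.1, 12.7 and 11.2 CPM in juveniles (log2 fold change 1.21 ± 0.20 (SE), adjusted p = 0.00321). Cenpf, a kinetochore protein, stood at 342, 237 and 246 CPM and 90.6, 167 and 90.5 CPM (1.25 ± 0.21, adjusted p = 0.00349).

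The mitosis difference was not repeated after E. coli. There the list's median was -0.128, no member was higher in neonates and 2 were lower, while 1964 genes (17.8%) were called between the ages. The test of the difference itself, PBS age difference minus E. coli age difference, called 774 genes (6.997%), among them 25 of the 35 mitosis genes and 7 of the 40 S phase genes, all with the larger value after PBS. For Mki67 the E. coli libraries held 1243, 1283 and 1498 CPM in neonates and 2474, 2184 and 1780.4 CPM in juveniles, and the difference between the age effects was 1.81 ± 0.27 (adjusted p = 0.00157).

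Some transcripts of effector and memory cells were on the other side, lower in neonates. On the memory and effector list 8 of 35 genes fell, 2 rose and 25 did not pass (median -0.266), against 1.75% lower over all genes tested. The list summed to 7762, 7333 and 7308 CPM in neonates and 7589, 8200 and 7743 CPM in juveniles, which overlap. Cd44 (chr2:102811141-102901665), the adhesion receptor that marks antigen-experienced T cells, stood at 139.8, 123 and 145 CPM in neonates and 219, 245 and 262 CPM in juveniles (log2 fold change -0.84 ± 0.10 (SE), adjusted p = 0.000437). S100a4 (chr3:90603771-90606045), a calcium-binding protein of memory cells, stood at 33.5, 30.97 and 35.1 CPM and 81.1, 170.1 and 124 CPM (-1.91 ± 0.24, adjusted p = 0.000521). Every juvenile pool was above every neonatal pool for both. Cxcr6, a chemokine receptor of lung-resident T cells, stood at 19.5, 18.2 and 22.7 CPM and 45.2, 56.2 and 49.3 CPM (-1.32 ± 0.15, adjusted p = 0.000338). Klrg1 (chr6:122270596-122282882), an inhibitory receptor of late effector cells and of some regulatory T cells, stood at 27.5, 30.7 and 31.4 CPM against 106, 169 and 120.2 CPM (-2.14 ± 0.30, adjusted p = 0.00119). Ccl5, a chemokine stored by effector cells, was low throughout, at 1.78, 2.36 and 1.63 CPM and 8.501, 7.25 and 7.01 CPM (-1.96 ± 0.29, adjusted p = 0.00141). The groups were apart for these 3 genes as well.

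The 2 genes that rose on that list were Anxa2 and Itga4. Anxa2 (chr9:69453620-69491795), a calcium- and membrane-binding annexin, stood at 84.2, 81.1 and 77.7 CPM in neonates and 32.9, 24.6 and 32.2 CPM in juveniles (log2 fold change 1.44 ± 0.15 (SE), adjusted p = 0.000133), the opposite direction to S100a4. Itga4, an integrin chain used for entry into tissue, changed by 0.33 ± 0.07, adjusted p = 0.0211. After E. coli the list's median was -1.192, with 27 members lower and 1 higher in neonates, against 1254 and 710 of all 11062 genes tested. Of the 35 members 16 had an age difference that differed between treatments by its own test, against 6.997% of all genes tested. All 16 had the lower value after E. coli. Anxa2 was one of these, at 0.16 in the E. coli libraries.

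Of 34 genes of tissue homing and residency 7 fell, 1 rose and 26 did not pass, with a median of -0.089. Cd69, which holds T cells in tissue, stood at 114, 101 and 109 CPM in neonates and 217, 208 and 183 CPM in juveniles (log2 fold change -0.91 ± 0.10 (SE), adjusted p = 0.000184). Itgae, the integrin chain CD103 that binds epithelium, stood at 6.99, 10.4 and 9.15 CPM and 23.8, 36.3 and 29.97 CPM (-1.75 ± 0.25, adjusted p = 0.00120). Gpr183, a receptor for oxysterols that positions lymphocytes, stood at 109.6, 108 and 103 CPM and 180.0, 166 and 182 CPM (-0.73 ± 0.09, adjusted p = 0.000338). No neonatal pool reached a juvenile pool in any of the 3. Cd69 is also induced within hours of receptor signals and of tissue handling, and it sat with Fos (-1.18 ± 0.21), Jun (-0.95 ± 0.21), Dusp1 (-0.82 ± 0.15), Klf6 (-0.61 ± 0.08) and Rgs1 (-0.64 ± 0.15) among 6 of 40 immediate early and dissociation genes that fell. On the same list Fosl2 (1.27 ± 0.26), Nr4a2 (1.08 ± 0.22) and Nr4a3 (0.82 ± 0.18) rose, and the median was -0.083. Neonatal replicate 2 was the highest pool for all 3 of these, with Fosl2 at 227, 359 and 171 CPM against 76.9, 101 and 136 CPM. Without that pool none of the list rose and 4 fell, and without juvenile replicate 1 none rose and 5 fell.

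Naive T cell genes mostly did not pass: 2 of 22 fell, none rose and the median was -0.025. Ccr7 changed by -0.11 ± 0.14 (0.766), Lef1 by -0.05 ± 0.11 (0.866) and Tcf7 by 0.15 ± 0.10 (0.493), each p adjusted and each with overlapping groups. The exceptions were Dapl1 and Il7r. Dapl1, whose transcript marks naive and resting T cells, stood at 13.2, 14.7 and 13.1 CPM in neonates and 34.1, 40.4 and 34.8 CPM in juveniles (log2 fold change -1.41 ± 0.13 (SE), adjusted p = 5.17e-05). Il7r, the receptor of the survival cytokine interleukin-7, stood at 826, 954 and 821 CPM and 1219, 1170.3 and 1208 CPM (-0.47 ± 0.10, adjusted p = 0.0149), a call lost without neonatal replicate 1, neonatal replicate 3 or juvenile replicate 1. After E. coli 14 of the 22 naive genes were higher in neonates, against 710 of all 11062 genes tested. Of the 22, 11 had an age difference that differed between treatments, against 6.997% of all genes tested.

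**Figure D4:**
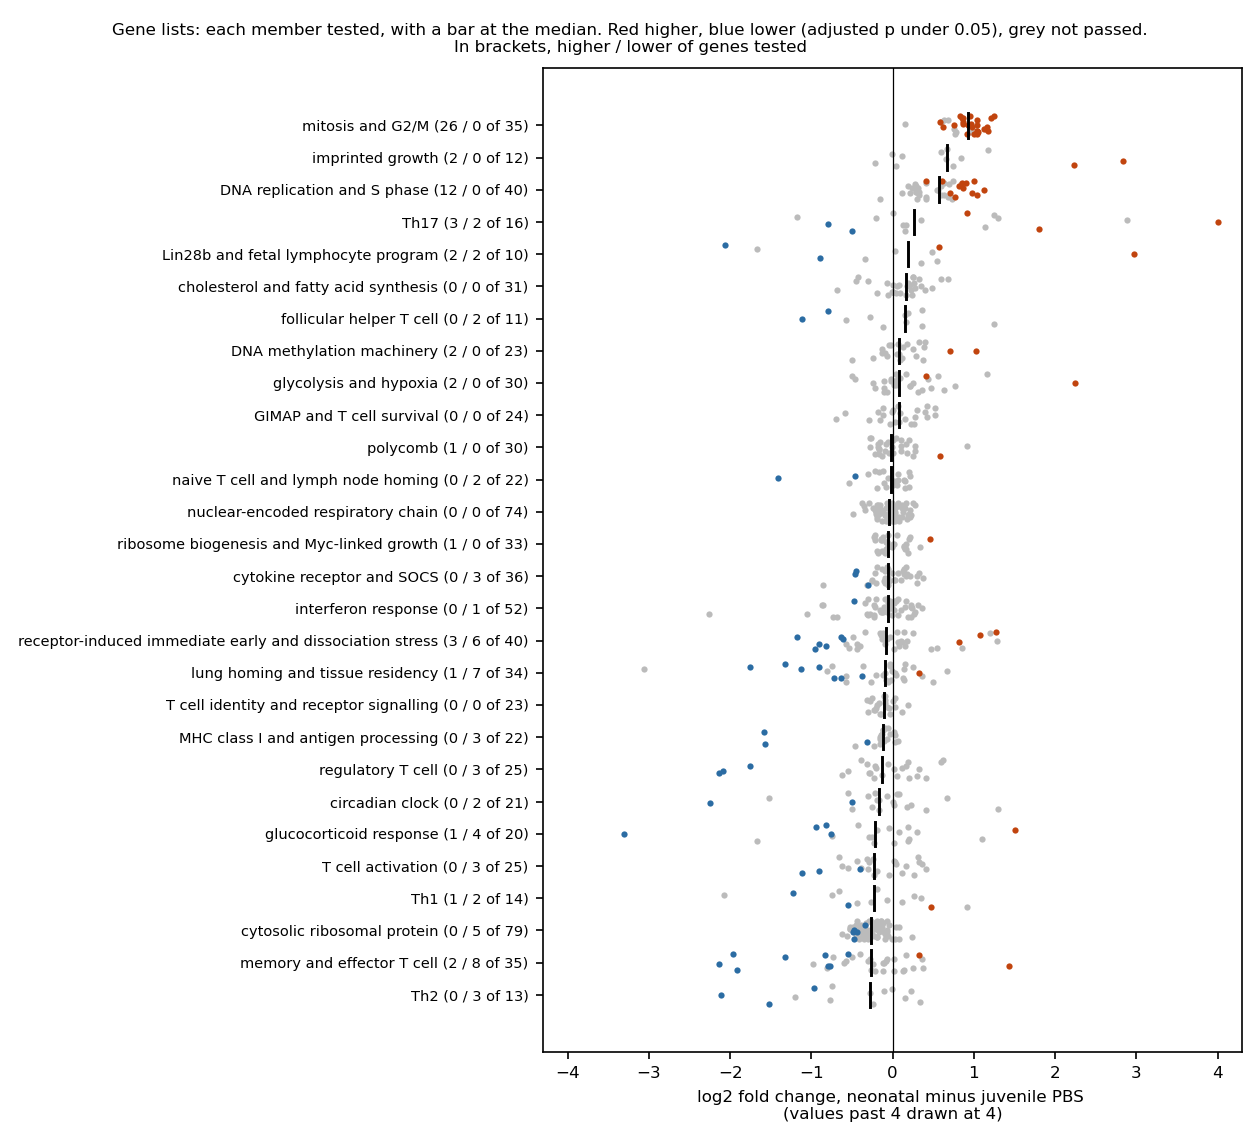
log2 fold change, neonatal minus juvenile PBS (x axis), for each tested member of 28 gene lists, with members that rose in red, that fell in blue and that did not pass in grey, and a bar at each list's median. The mitosis list lies furthest to the right, at a median of 0.928 with 26 of 35 members in red, and the Th2 list furthest to the left, at -0.276.

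Helper subsets differed by a few genes each. On the Th2 list 3 of 13 fell and none rose. Il1rl1, the receptor of interleukin-33 shared by Th2 cells, lung regulatory T cells and type 2 innate lymphoid cells, stood at 18.6, 17.4 and 11.8 CPM in neonates and 57.8, 83.4 and 66.2 CPM in juveniles (log2 fold change -2.11 ± 0.35 (SE), adjusted p = 0.00382). Il17rb, the receptor of interleukin-25, and Pparg changed by -0.96 ± 0.22 and -1.52 ± 0.38, calls that were both lost without neonatal replicate 1 or 2. The Il17rb call was also lost without juvenile replicate 1 or 3, and the Pparg call without neonatal replicate 3 or juvenile replicate 2. The list of NK and innate lymphoid cells, on which Il1rl1 and Id2 fell and Kit rose among 11, summed to 78.8 to 95.4 CPM in neonates and 134 to 156 CPM in juveniles, and the part of such cells in the Il1rl1 difference was not tested. Gata3, the Th2 lineage factor, stood at 120.2, 114 and 106 CPM and 133, 142 and 137 CPM and did not pass (-0.28 ± 0.09, adjusted p = 0.118). Il4 was at or below about 1 CPM in all pools. On the Th1 list Stat4, which relays interleukin-12, rose by 0.48 ± 0.09, while Ly6c2 (-1.23 ± 0.22) and Il18r1 (-0.55 ± 0.11) fell, 3 of 14 in all. Tbx21, the Th1 lineage factor, changed by -0.75 ± 0.26, adjusted p = 0.130, and Ifng by -0.44 ± 0.34, adjusted p = 0.564.

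On the Th17 list 3 of 16 rose and 2 fell. Il22 (chr10:118204942-118210047), the cytokine that acts on epithelium, stood at 4.16, 2.08 and 4.57 CPM in neonates and 0, 0.330 and 0 CPM in juveniles, which is 71 counts against 2. The ratio of counts scaled to depth was 34.1, with a 95% interval of 9.11 to 287 that covers counting error only (edgeR adjusted p = 0.000521). After E. coli Il22 stood at 14.04, 13.2 and 11.7 CPM and 7.67, 7.596 and 6.74 CPM, and the age difference differed between treatments (adjusted p = 0.00491). Il23r, the receptor that sustains such cells, stood at 4.76, 3.75 and 9.15 CPM against 2.02, 2.31 and 0.638 CPM (1.802 ± 0.42, adjusted p = 0.0228). Tmem176a, an ion channel gene, changed by 0.92 ± 0.23, adjusted p = 0.0320. Maf and Rora, factors shared with other helper subsets, changed by -0.80 ± 0.13 and -0.51 ± 0.13, and Rora lost its call without any 1 pool but neonatal replicate 2. The Il23r call was lost without neonatal replicate 1 or 3 or juvenile replicate 1 or 3, and the Tmem176a call without any 1 pool but neonatal replicate 2. Il23r is also made by gamma-delta T cells, and their scavenger receptor Cd163l1 stood at 6.25, 7.92 and 4.9002 CPM against 2.45, 2.31 and 1.43 CPM (1.62 ± 0.30, adjusted p = 0.00671). The gamma-delta and NKT list had these 2 of 5 higher and summed to 17.2 to 22.7 CPM in neonates and 16.6 to 25.4 CPM in juveniles. The constant-region genes of the gamma-delta receptor were not matched in the count table, and the part of such cells in the Il22 difference was not tested.

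Regulatory T cell identity genes did not pass the test. Foxp3, the lineage factor, stood at 302, 319 and 309 CPM in neonates and 294, 389 and 333 CPM in juveniles (log2 fold change -0.13 ± 0.18 (SE), adjusted p = 0.778), and Ikzf2 at 491, 531 and 519 CPM and 504, 525 and 460.4 CPM (0.05 ± 0.15, adjusted p = 0.907). The groups overlapped for both. Il2ra, the high-affinity chain of the interleukin-2 receptor, stood at 285, 283 and 313 CPM and 197, 258 and 209 CPM (0.41 ± 0.21, adjusted p = 0.320). On the list of 25 the genes that fell were Klrg1, Itgae and Il10, which are features of effector and tissue regulatory cells. Il10 stood at 1.04, 1.81 and 1.797 CPM and 3.46, 5.93 and 10.7 CPM (-2.09 ± 0.49, adjusted p = 0.0234), a call lost without any 1 of the neonatal pools or without juvenile replicate 3. Itgb8, an integrin chain that activates TGF-beta, stood at 1.93, 2.92 and 1.797 CPM against 6.05, 9.56 and 6.22 CPM (-1.69 ± 0.36, adjusted p = 0.0164), a call lost without neonatal replicate 1 or 3. After E. coli 20 of the 25 were lower in neonates and 1 higher, against 1254 and 710 of all 11062 genes tested. Foxp3 was then at -1.64 on the log2 scale, Ikzf2 at -1.504 and Il2ra at -1.604, and the age difference of each differed between treatments (adjusted p = 0.00287, 0.00114 and 0.00137).

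Fetal lymphocyte genes moved in both directions, with a median of 0.188 over the 10 tested. Lin28b (chr10:45376620-45486395 of GRCm38) stood at 2.08, 0.972 and 2.29 CPM in neonates and 0, 0.494 and 0.159 CPM in juveniles (log2 fold change 2.98 ± 0.75 (SE), adjusted p = 0.0348), so that it was barely detected at either age. Its call was lost without neonatal replicate 1 or 3 or juvenile replicate 1 or 3. Igf2bp3, an RNA-binding protein of fetal tissues, was far better counted, at 178, 172 and 173 CPM and 119.7, 115 and 118 CPM (0.57 ± 0.08, adjusted p = 0.00124), and no 2 pools of one age differed by as much as the ages did. Both were higher in neonates after E. coli as well, by 3.29 and 0.78. Of the 10 fetal lymphocyte genes tested these were the 2 that rose, and Bcl11a (-0.89 ± 0.21) and Dusp9 (-2.06 ± 0.52) fell. The fall of both was lost without neonatal replicate 1 or 2 or juvenile replicate 3. Hmga1 (0.49 ± 0.22, adjusted p = 0.248) and Sox4 (0.54 ± 0.16, adjusted p = 0.0774) did not pass. Zbtb16, the factor of innate-like T cells, stood at 4.31, 3.19 and 4.41 CPM in neonates and 15.99, 10.9 and 10.999 CPM in juveniles and did not pass (-1.67 ± 0.45, adjusted p = 0.0508).

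The miRNA let-7 acts on Lin28b and its relatives in turn, so let-7 sites were read from the annotation. All 9 let-7 family members in the RefSeq miRNA table share the seed of let-7a, bases 2 to 8, here in capitals: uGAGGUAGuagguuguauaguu. Its match CTACCTC occurs 4 times in the 3′ UTR of the longest Lin28b transcript of GENCODE M21 and 1 time in that of Igf2bp3. The Lin28b matches start at bases 39, 2413, 2585 and 4001 of the 3′ UTR and the Igf2bp3 match at base 551. They are shown with their flanks on the transcript's strand and the match in capitals:

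Lin28b site 1: gcgggaagtCTACCTCatgcaagca

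Lin28b site 2: tgttagtaaCTACCTCtgagtttga

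Lin28b site 3: agcacatggCTACCTCccagctacc

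Lin28b site 4: tggcaccgaCTACCTCttcaatcac

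Igf2bp3 site 1: tttactcaaCTACCTCaggtattca

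Genes with such a match were no more frequent among those that moved. The share was 10.3% of genes higher in neonates, 9.09% of genes lower and 10.5% of all genes tested that have a 3′ UTR. The miRNAs themselves were not measured here.

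Of 12 imprinted genes tested 2 rose and none fell, and Grb10 had the largest rise among called genes with an average log2 CPM of at least 3. Grb10 (chr11:11930508-12038683, minus strand), an adaptor that restrains insulin and growth factor signals, stood at 9.52, 5.83 and 18.8 CPM in neonates and 0.432, 2.97 and 1.43 CPM in juveniles (log2 fold change 2.83 ± 0.54 (SE), adjusted p = 0.00854). It was higher after E. coli too (2.24, adjusted p = 0.00261). Peg3 rose by 2.23 ± 0.60 (adjusted p = 0.0488), a call that 15 of 17 other settings did not keep. Igf2 stood at 2.97, 1.94 and 4.08 CPM and 1.87, 0.989 and 2.71 CPM and did not pass (0.67 ± 0.48, adjusted p = 0.529).

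In the DNA methylation machinery 2 of 23 genes rose and none fell. Uhrf1 (chr17:56303321-56323486) stood at 64.4, 47.4 and 49.5 CPM in neonates and 23.1, 31.97 and 24.1 CPM in juveniles (log2 fold change 1.03 ± 0.18 (SE), adjusted p = 0.00581). Hells, a remodeller that helps methylate silent chromatin, stood at 54.9, 55.6 and 65.7 CPM and 31.6, 43.7 and 32.998 CPM (0.70 ± 0.15, adjusted p = 0.0185), a call lost without neonatal replicate 1 or 3 or juvenile replicate 1 or 3. Without juvenile replicate 2 the list had 4 rises and 2 falls, and DESeq2 gave 3 and 2. Uhrf1 and Hells are also made in S phase, and the part of dividing cells in their rise was not tested. For both the age difference differed between treatments (adjusted p = 0.0239 and 0.00811). Dnmt1 stood at 409, 369 and 409 CPM and 282, 369 and 260.0 CPM (0.38 ± 0.13, adjusted p = 0.117), with juvenile replicate 2 level with the lowest neonatal pool. The de novo methyltransferases Dnmt3a (0.08 ± 0.09, adjusted p = 0.714) and Dnmt3b (0.40 ± 0.17, adjusted p = 0.232) did not pass. Nor did Tet1 (-0.13 ± 0.08, adjusted p = 0.458), Tet2 (0.28 ± 0.08, adjusted p = 0.0567) or Tet3 (0.18 ± 0.13, adjusted p = 0.538), which oxidise methylated cytosine. Among 30 polycomb genes only Ezh2, the histone methyltransferase, passed, at 202, 187 and 182 CPM and 122, 156 and 102 CPM (0.59 ± 0.14, adjusted p = 0.0273), a call lost on leaving out any of 5 of the 6 pools, juvenile replicate 2 being the exception.

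CpG sites in promoters were counted because the series concerns their methylation, which was not analysed here. The median promoter of 300 bases held 21 CpG among all genes tested, 21 among the 210 higher genes with a promoter and 24 among the mitosis genes. For the lower genes the check is void, since 74.7% of them have a promoter in the table. A CpG-rich and a CpG-poor promoter are shown as examples, with each CpG in capitals, and they stand for neither direction of change. The upper quartile of the higher genes was 27.25 CpG. Grb10 rose and its promoter holds 45 CpG, and S100a4 fell and its promoter holds 2:

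Grb10 (chr11:12037371-12037670, minus strand): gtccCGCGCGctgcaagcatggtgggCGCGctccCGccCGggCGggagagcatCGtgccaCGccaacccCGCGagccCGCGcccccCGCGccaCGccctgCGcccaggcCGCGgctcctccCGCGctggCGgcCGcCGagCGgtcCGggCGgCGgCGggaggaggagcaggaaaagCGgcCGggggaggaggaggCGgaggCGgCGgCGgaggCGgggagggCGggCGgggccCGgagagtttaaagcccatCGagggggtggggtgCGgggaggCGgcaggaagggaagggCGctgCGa

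S100a4 (chr3:90603520-90603819, plus strand): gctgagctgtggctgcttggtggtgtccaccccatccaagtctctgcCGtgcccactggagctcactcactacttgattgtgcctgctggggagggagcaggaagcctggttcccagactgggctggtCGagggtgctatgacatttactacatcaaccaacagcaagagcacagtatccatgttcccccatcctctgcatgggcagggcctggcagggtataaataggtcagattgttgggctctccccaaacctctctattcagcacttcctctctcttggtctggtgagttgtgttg

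Some antigen presentation genes of both classes were lower in neonates. Of 22 class I genes 3 fell and none rose (median -0.124), namely H2-Q7, H2-Q6 and H2-K1. H2-Q7 (chr17:35439155-35443773) stood at 25.3, 32.2 and 28.3 CPM in neonates and 80.5, 95.6 and 81.6 CPM in juveniles (log2 fold change -1.58 ± 0.12 (SE), adjusted p = 9.28e-06), and its neighbour H2-Q6 (chr17:35424850-35430055) at 10.7, 9.58 and 16.8 CPM and 27.2, 46.6 and 36.3 CPM (-1.58 ± 0.23, adjusted p = 0.00130). These non-classical genes are near-identical copies, so how reads were split between them is uncertain. H2-K1, a classical class I gene, moved little (-0.32 ± 0.08, adjusted p = 0.0266), and lost its call without neonatal replicate 1 or 2. After E. coli the age gap of H2-Q7 was larger still, at -2.71, and the difference passed its own test (adjusted p = 0.00165).

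On the dendritic cell and MHC class II list 7 of 17 genes fell and none rose, with a median of -1.062. H2-Ab1, a class II chain that mouse T cells scarcely make, stood at 17.7, 17.9 and 24.7 CPM in neonates and 54.2, 38.7 and 60.3 CPM in juveniles (log2 fold change -1.35 ± 0.17 (SE), adjusted p = 0.000521). Cd209a, a lectin of dendritic cells, stood at 0.744, 0.972 and 0.653 CPM and 6.48, 6.43 and 6.06 CPM (-2.96 ± 0.32, adjusted p = 0.000184), and Siglech of plasmacytoid dendritic cells at 20.4, 21.1 and 31.7 CPM against 45.2, 59.5 and 59.5 CPM (-1.17 ± 0.20, adjusted p = 0.00527). All 3 juvenile pools exceeded all 3 neonatal pools in each. Flt3 and Xcr1, defining markers of dendritic cells, stood at 1.64, 2.36 and 4.08 CPM and 2.23, 1.11 and 0.980 CPM in neonates and at 4.61, 12.4 and 4.94 CPM and 2.02, 4.45 and 2.71 CPM in juveniles, and neither passed. The list summed to 182.2 to 249.4 CPM in neonates and 345.4 to 449.4 CPM in juveniles, and no member was at 0 in all 6 pools. In sorted bulk RNA, fewer cells of a type and less RNA per cell cannot be told apart. Fgl2 (chr5:21372642-21378374), a fibrinogen-like protein made by regulatory T cells and macrophages, had the largest fall after Chi3l3 among called genes with an average log2 CPM of at least 3, from 97.5, 129 and 118 CPM in juveniles to 23.2, 19.7 and 19.6 CPM in neonates (log2 fold change -2.46 ± 0.26 (SE), adjusted p = 0.000137). Monocyte and macrophage transcripts had 5 of 20 lower, among them Chi3l3, Ear2, Cd68 and Tyrobp, with 1 higher (Itgam) and a summed level of 485 to 660 CPM in neonates and 553 to 822 CPM in juveniles, which overlap. Without neonatal replicate 1 this list had 1 member lower, and without juvenile replicate 3 it had 2. The part of these cells in the Fgl2 difference was not tested.

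Lists of lung structural cells had positive medians. The lung epithelial list had 1 of 11 higher (Sftpa1) at a median of 1.448, the endothelial list 1 of 12 (Tie1) at 1.334, and the fibroblast list 0 of 8 at 1.289. Over the 8, 8 and 7 members that reached 10 counts in all libraries of either PBS group the medians were 0.776, 0.264 and 1.534. Their summed levels were 71.4 to 110.9, 499.5 to 560.1 and 53.1 to 110.4 CPM in neonates and 60.1 to 66.1, 442 to 497 and 30.5 to 54.0 CPM in juveniles. Dcn, which defines fibroblasts, and Cldn5 of endothelium had at most 6 counts in any pool. The Tie1 call was lost on leaving out any 1 pool, and the Sftpa1 call without neonatal replicate 1 or 3 or juvenile replicate 3. Surfactant Sftpc stood at 17.99, 2.92 and 14.05 CPM in neonates and 2.16, 1.65 and 1.28 CPM in juveniles, and the endothelial cadherin Cdh5 at 15.02, 8.61 and 30.9 CPM and 6.34, 3.13 and 4.78 CPM. Neonatal replicate 2 was the lowest neonatal pool for both. It was also the lowest neonatal pool for several of the 12 largest rises. Scn7a, a sodium channel of non-neuronal cells, stood at 30.6, 12.5 and 60.3 CPM against 11.5, 3.63 and 2.71 CPM (log2 fold change 2.49 ± 0.66 (SE), adjusted p = 0.0456), and Cd93, a receptor of endothelial and myeloid cells, at 48.03, 25.3 and 71.9 CPM against 16.1, 12.4 and 8.77 CPM (1.95 ± 0.34, adjusted p = 0.00538). Kit, the stem cell factor receptor of mast cells and innate lymphoid cells, stood at 17.99, 14.03 and 32.99 CPM against 4.899, 10.1 and 4.46 CPM (1.74 ± 0.35, adjusted p = 0.0103), and Grb10 was lowest in that pool too. The Scn7a call was lost under 9 of 17 other settings, and the Kit call without juvenile replicate 1. A fit with lung structural transcripts as a covariate kept the call of 29 of 89 called genes named by rule. In it the log2 fold changes were 0.23 for Scn7a, 0.89 for Cd93, 1.22 for Kit, 2.23 for Grb10, 1.92 for Thbs1, 1.45 for Stc2, 1.497 for Shcbp1, 1.17 for Tshz3 and 1.21 for Akr1c12, none past the test, and 1.75 for Tln2, 1.68 for Cdkn1a and 1.33 for Anxa2, which passed. The part of structural cells in these differences was not tested.

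The other leading rises were Tln2, Stc2, Akr1c12, Tshz3, Shcbp1 and Thbs1. Tln2 (chr9:67217087-67559703), a talin that ties integrins to actin, stood at 17.4, 17.9 and 18.8 CPM in neonates and 5.48, 6.59 and 4.78 CPM in juveniles (log2 fold change 1.68 ± 0.17 (SE), adjusted p = 0.000133). Stc2, a secreted glycoprotein, stood at 13.1, 9.58 and 10.9 CPM and 4.899, 3.296 and 3.51 CPM (1.51 ± 0.24, adjusted p = 0.00302). Akr1c12, an aldo-keto reductase, stood at 34.2, 29.6 and 38.7 CPM and 10.1, 15.99 and 13.9 CPM (1.36 ± 0.20, adjusted p = 0.00132). The neonatal pools of these genes lay close together and clear of the juvenile pools. Akr1c18 (1.24 ± 0.33) and Akr1c13 (0.54 ± 0.14), relatives of Akr1c12 named after their values were seen, rose as well. Family members are similar in sequence, and how reads were split between them is uncertain. Tln2, Stc2 and Akr1c12 had like differences after E. coli, of 1.596, 1.46 and 1.16. Tshz3, a zinc finger factor, changed by 1.39 ± 0.29, and Shcbp1, which acts in cell division, by 1.48 ± 0.26. The Tshz3 call was lost without neonatal replicate 2. Thbs1, the matrix protein thrombospondin, stood at 7.14, 6.53 and 5.72 CPM against 1.58, 0 and 2.07 CPM (2.37 ± 0.56, adjusted p = 0.0245), a call lost without neonatal replicate 1 or 2 or juvenile replicate 1.

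Hlf, a PAR-domain transcription factor of stem cells and the clock, stood at 4.02, 3.75 and 2.29 CPM in neonates and 15.3, 13.5 and 19.8 CPM in juveniles (log2 fold change -2.25 ± 0.42 (SE), adjusted p = 0.00739). Ctla2a, a protease inhibitor, stood at 2.68, 2.36 and 3.59 CPM and 8.501, 22.7 and 8.61 CPM (-2.202 ± 0.43, adjusted p = 0.00886), with juvenile replicate 2 far above its partners, and its call was lost without neonatal replicate 1. Chi3l3, a chitinase-like protein secreted by macrophages, stood at 35.9, 35.8 and 28.2 CPM in juveniles and gave 1 count in all neonatal pools against 643, a ratio of 669 (95% interval 120 to 26400, counting error only). The glucocorticoid-responsive genes Txnip and Tsc22d3 also fell, from 564, 493 and 543 CPM to 320.2, 323 and 301 CPM (log2 fold change -0.76 ± 0.11 (SE), adjusted p = 0.00120) and from 461, 589.8 and 424 CPM to 249, 267 and 252 CPM (-0.94 ± 0.16, adjusted p = 0.00370), among 4 of 20 on that list, with Cdkn1a the 1 that rose. Their age differences differed between treatments (adjusted p = 0.00128 and 0.00318), and after E. coli they were 0.35 and 0.36.

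Metabolic and growth lists moved little. Of 79 cytosolic ribosomal protein genes 5 fell and none rose, and the median was -0.263. They summed to 37620 to 40040 CPM in neonates and to 41000, 54760 and 40980 CPM in juveniles, so juvenile replicate 2 stood apart. Rps24 was the member with the smallest p, at 809, 827 and 797 CPM in neonates and 1022, 1344 and 1015 CPM in juveniles (log2 fold change -0.48 ± 0.11 (SE), adjusted p = 0.0211), and juvenile replicate 2 was the highest pool. Without juvenile replicate 2 the list had 2 fallen genes and a median of -0.154, and without neonatal replicate 1 or 3 it had none, and without juvenile replicate 3 it had 9. After E. coli 43 of the 79 were higher in neonates (median 0.376), against 710 of all 11062 genes tested. Of the 79, 47 passed the test of the difference between treatments, against 6.997% of all genes tested. Of 36 cytokine receptor and SOCS genes 3 fell (Il7r, Il27ra and Tgfbr2), and 1 did without neonatal replicate 1 or 3 or juvenile replicate 1. The Tgfbr2 call was lost without any 1 pool but juvenile replicate 2. Of 25 T cell activation genes 3 fell (Cd69, Pdcd1 and Ccnd2), and no member of either list rose. No member passed among 74 respiratory chain genes, 31 sterol and fatty acid genes or 24 GIMAP and survival genes. On the glycolysis and hypoxia list 2 of 30 rose. Vegfa, the vascular growth factor, stood at 8.33, 7.36 and 6.697 CPM and 1.44, 1.48 and 1.75 CPM (2.25 ± 0.32, adjusted p = 0.00106), and P4ha1 changed by 0.41 ± 0.10, adjusted p = 0.0333, a call lost without neonatal replicate 1 or 2 or juvenile replicate 2 or 3. The interferon response list, called at 49 of 52 genes as lower in neonates after E. coli, had 1 of 52 lower after PBS (Ifi47, -0.48 ± 0.12) and a median of -0.062, and it had none lower on leaving out any 1 pool but juvenile replicate 3. The difference between the treatments passed its own test at 38 of the 52, against 6.997% of all genes tested. Called lower in neonates after E. coli were 1254 of all 11062 genes tested.

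The called genes were then followed into the E. coli libraries, whose age difference had no part in choosing them, although their spread did. Of the 194 genes lower in neonates after PBS, 164 had a negative age difference after E. coli, against 47.8% of all genes tested. Called lower there were 125 of the 194 (64.4%), against 1254 of all 11062 genes tested, and they made up 9.97% of those 1254. Of the 257 higher genes, 140 had a positive age difference after E. coli, against 52.2% of all genes tested. Called higher there were 41 of the 257 (16%), against 710 of all 11062 genes tested, and they made up 5.77% of those 710. In each set 7 genes were called in the opposite direction. The difference between the age effects passed its own test for 124 of the 257 higher and 53 of the 194 lower genes, against 6.997% of all genes tested. These genes were chosen by their PBS age difference, which enters that test, so these counts are no result about them. All 12 libraries set the spread in both contrasts.

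**Figure D5:**
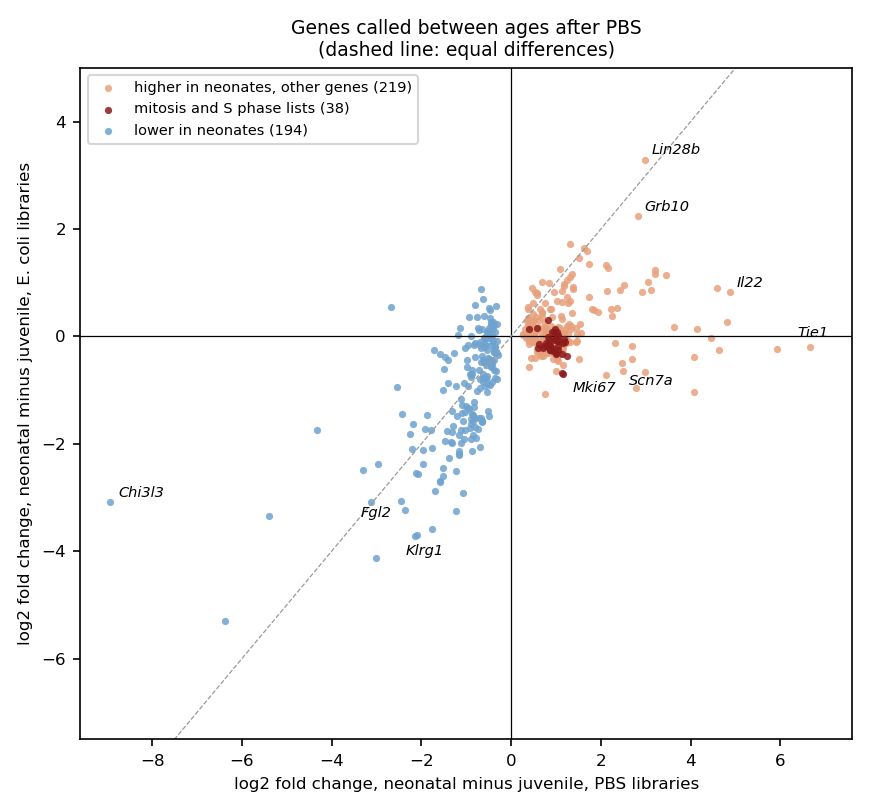
log2 fold change between ages after PBS (x axis) and after E. coli (y axis) for the 451 genes called after PBS, with the dashed line at equal differences. The 38 called genes of the mitosis and S phase lists (dark red) lie between -0.71 and 0.30 on the y axis, while most of the 194 lower genes (blue) lie below 0 on both axes. Fitted values of genes with counts near 0 at 1 age, such as Tie1, depend on the prior count.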

How the data were processed

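Bulk RNA of lung CD4+ T cells was sequenced in 12 libraries. Reads were basecalled with CASAVA 1.8.4 and aligned with STAR to GRCm38, per the submitters' processing notes, and cDNA was made with a kit that does not mark strand, per the labels' protocols. The labels name no counting settings, so antisense and overlapping genes cannot be told apart. The authors deposited raw counts per gene, with no normalization. Library totals were 6035445 to 8129983 counts. Genes were tested in R 4.3.3 with edgeR 4.0.16: filterByExpr (minimum count 10, total 15; 11062 of 19434 genes), TMM scaling, a mean for each of the 4 groups, quasi-likelihood F-tests and Benjamini-Hochberg adjustment over all genes tested, with 0.05 as threshold. Standard errors (SE) are the log2 fold change divided by the square root of F. CPM, depth-scaled counts, use a library's total over tested genes times its TMM factor. p-values weigh a difference against the spread between pools of one group, estimated from all 12 libraries.

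Named genes were the 12 largest rises and falls among called genes with average log2 CPM of at least 3 and groups apart, up to 4 members of smallest p per list, and a fixed set, of which some members are not reported here. Akr1c13, Akr1c18, Cenpf, E2f7, E2f8, Flt3, Fosl2, Itga4, Itgam, Jun, Nr4a2, Nr4a3, Plk1, Rgs1 and Xcr1 were named beyond this, after their values were seen. The comparison and the lists were chosen with earlier results of these data known. List members numbered 1089, of which 1069 were matched, 6 by older symbols. Alternatives were DESeq2 1.42.0, voom of limma 3.58.1, robust edgeR, scaling by RLE or upper quartile, other filters, only the PBS libraries, a replicate block, covariates and leaving out libraries. Intervals of counts cover counting error only. Gene coordinates are those of GENCODE M21 (GRCm38).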

Additional observations from a re-analysis of the deposited data

Results flagged for a closer look

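Of 140 genes named above or in the other observations, 52 had an age difference that differed between PBS and E. coli libraries at an adjusted p under 0.05 (edgeR's quasi-likelihood test of the interaction), against 6.997% of all genes tested, and 43 of the 52 were called between the ages after PBS. Most of the 140 were named for their PBS calls or after their values were seen, so the counts are no result about them. Values here are that log2 difference, PBS minus E. coli, so a positive value means that neonates stood relatively higher after PBS. Among cell cycle genes it was 1.81 for Mki67, 1.62 for Cenpf, 1.32 for Plk1, 1.29 for Tpx2, 1.23 for Kif11, 1.02 for Ect2, 0.92 for Foxm1, 1.43 for Shcbp1 and 1.93 for Cdkn1a. It was 1.45 for Clspn, 1.31 for Rrm2, 0.995 for Tyms, 0.81 for Pole, 1.43 for E2f7 and 1.46 for E2f8. Among chromatin genes it was 1.03 for Uhrf1, 1.07 for Hells and 0.82 for Ezh2, and below 0 for Tet1, at -0.54.

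Genes of effector and regulatory cells also had positive values. These were 1.52 for Foxp3, 1.55 for Ikzf2, 2.01 for Il2ra, 1.58 for Klrg1, 2.598 for Ifng, 1.28 for Ly6c2, 0.89 for Maf, 0.87 for Rora, 1.28 for Anxa2, 0.94 for Rgs1, 0.90 for Nr4a3 and 0.54 for Rel. Antigen presentation genes stood at 1.13 for H2-Q7, 1.12 for H2-Q6 and 0.48 for H2-K1, and myeloid genes at 0.97 for Irf8 and 1.38 for Cybb. Vegfa was at 1.86, and genes of vessels and stroma were at 2.58 for Cdh5 and 3.14 for Scn7a. Il22 at 4.06, Mylk at 4.55 and Sox7 at 4.46 are fitted values that rest on at most 2 counts in the juvenile PBS pools together and give no bound. Naive and resting genes, among others, had negative values, of -0.54 for Tgfbr2, -1.24 for Ccr7, -0.76 for Lef1, -0.67 for Tcf7, -0.97 for Dapl1, -0.85 for Gpr183, -1.11 for Txnip, -1.304 for Tsc22d3, -1.21 for Fos and -0.81 for Rps24.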

How the results depend on the processing

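The 451 called genes (257 higher and 194 lower in neonates) became 729 (394 and 335) with DESeq2 and 927 (525 and 402) with limma voom and sample weights. They became 280, of which 106 lower, when only the 6 PBS libraries set the spread, 77 (30 and 47) with lung structural transcripts as a covariate and 81 (53 and 28) with antigen-presenting cell transcripts as a covariate. The last pair and a Y-linked covariate were chosen after seeing the data. Genes lower in neonates after both PBS and E. coli numbered 125, and 188 with DESeq2. Leaving out 1 library at a time gave 177 to 671 called genes, 92 to 407 higher and 85 to 264 lower. A fit with immature T cell transcripts as a covariate called 428 genes, and a fit with the Y-linked covariate called 395. The cause of these changes was not tested. Replicate numbers are shared between the groups, but deviations of same-numbered pools correlated at 0.00804, -0.037 and -0.102, so they were not taken as pairs; a fit with a replicate block called 416 genes (239 and 177). None of the called genes named by rule reversed its direction in the alternatives run. Of 89 called genes named by rule, 58 kept their call without neonatal replicate 1, 29 with the structural, 36 with the antigen-presenting and 74 with the Y-linked covariate. A library's floor of 3 counts was 0.417 to 0.494 CPM, which limits what can be said of Il22, Lin28b, Chi3l3 and Tie1.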

Other observations

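Genes in these paragraphs were chosen after their values were seen, and stand for no cell type as a whole. Retnla, a resistin-like protein secreted by alternatively activated macrophages, stood at 0, 1.11 and 0.817 CPM in neonates and 19.3, 11.9 and 8.45 CPM in juveniles (log2 fold change -4.32 ± 0.76 (SE), adjusted p = 0.00542). Mgl2 and Clec10a, paired galactose lectins of macrophages and dendritic cells, stood at 1.34, 0.694 and 0.327 and 1.64, 0.833 and 0.653 CPM in neonates and at 11.5, 2.97 and 5.101 and 2.59, 5.27 and 3.83 CPM in juveniles (-3.02 ± 0.54 and -1.87 ± 0.41). All juvenile pools were above all neonatal pools for these 3 genes. The chemokine Ccl8 gave 0 counts in the neonatal pools and 14 in the juvenile pools, which against 3 counts in each library makes it at least 1.58-fold higher in juveniles. Irf8, a transcription factor of dendritic cells and macrophages, changed by -0.86 ± 0.20 and Cybb, a subunit of the phagocyte oxidase, by -0.69 ± 0.16. Lyz2, the lysozyme of macrophages, stood at 114, 57.4 and 72.03 CPM in neonates and 98.99, 41.7 and 68.4 CPM in juveniles, and the groups overlapped. The part of macrophages and dendritic cells in these values was not tested.

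Cldn18, a claudin of alveolar epithelium, stood at 11.3, 3.61 and 9.96 CPM in neonates and 1.58, 0.824 and 0.159 CPM in juveniles (log2 fold change 3.21 ± 0.71 (SE), adjusted p = 0.0190), and Slc34a2, the phosphate carrier of type 2 alveolar cells, at 12.3, 2.08 and 7.68 CPM and 0.576, 0.824 and 0.956 CPM (3.205 ± 0.66, adjusted p = 0.0128). Sox7, an endothelial transcription factor, gave 23 counts against 1, a ratio of 22.1 with a 95% interval of 3.59 to 911 for counting error. Mylk, a kinase of smooth muscle, gave 67 counts against 2, and Aqp1, a water channel of vessels, 52 against 2. Rel, an NF-kappa-B subunit induced on activation, stood at 314, 395 and 309.5 CPM in neonates and 201, 203 and 212 CPM in juveniles (0.73 ± 0.10, adjusted p = 0.000568).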
